A study of Mus musculus with 23 samples.

Results

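Subclones 19 and 23 are 2 lines grown by limiting dilution out of the parental culture of Lewis lung carcinoma (LLC), a mouse lung tumour line that grows when transplanted. They hold 6 of the 23 arrays of a series of 8 LLC subclones, with 3 arrays for subclone 19, 3 for subclone 23 and 17 for the other 6 subclones. The members were taken by the titles of the arrays. The pair was chosen by measured values, the low levels of Crabp1, Scara5 and Itih5 in both, so these levels are described without a test. No transgene, knockout or drug is named in the labels for either subclone, and both received the same handling. They were kept in DMEM with 10% fetal bovine serum and antibiotics, and total RNA was taken after 24 h in a serum-free expression medium. Each subclone is 1 derived line, so the 3 arrays, called biological replicates in the labels, measure the spread within that line. Neither line is a control of the other. Every difference below is subclone 19 minus subclone 23.

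Limiting dilution starts a culture from very few cells, so traits of the founder cell are carried by the whole line and differences that already existed among cells of the tumour line become differences between cultures. Such traits can be the dose or the silencing of a chromosome, the state of single genes, or the activity of a signalling pathway. LLC cells are studied in mice for local invasion, metastasis and wasting of fat and muscle, to which secreted proteases, cytokines and growth factors contribute.

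Values were array intensities in arbitrary units, given as deposited. Differences are on the scale log2(intensity + 16), which compresses low intensities, and carry the standard error (SE) of the fit over all arrays. An intensity near or under 16 is close to the floor of this scale. In arrays of a whole culture, fewer cells of a type and less RNA per cell cannot be told apart. Of 18193 genes tested, 3444 (18.9%) were higher and 3035 (16.7%) lower in subclone 19 at an adjusted p under 0.05, or 35.6% in either direction. These shares are the background for the gene lists below. Among the 10646 genes with a mean of at least 6 on the log2 scale over all arrays, 28.7% were higher and 26.5% lower, which is the nearer background for lists made almost wholly of such genes. The 6 genes that chose or mark the pair are left out of the list counts and list medians. Calls, which needed a difference of at least 1 log2 unit (2-fold) as well, were made for 242 genes higher (1.33%) and 180 lower (0.989%), or 422 in all (2.32%). For each of the 422, all 3 arrays of one line lay beyond all 3 of the other, which also holds for 8132 (44.7%) of all genes tested. All p-values come from limma with Benjamini-Hochberg adjustment over all genes tested. Arrays of the same subclone lay 0.203 to 0.216 log2 units apart in subclone 19 and 0.200 to 0.214 in subclone 23 (root mean square over genes, 3 pairs each), against 0.417 to 0.440 over the 9 pairs between the subclones. No array of either line lay as far from its own group as from the other line. Krt8 and Krt18, keratins of simple epithelium, and Vim, the intermediate filament of mesenchymal and many cultured tumour cells, were high on all 6 arrays. Krt8 had intensities of 1293, 1252 and 1244 on the subclone 19 arrays, against 1342, 1341 and 1385 on those of subclone 23, and Vim 13288, 13441 and 13301 on the subclone 19 arrays, against 14243, 14007 and 14372 on those of subclone 23.

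The 3 genes that defined the choice of the pair encode a retinoic acid binding protein (Crabp1), a scavenger receptor (Scara5) and a matrix-binding inhibitor chain (Itih5). Crabp1 had intensities of 98.6, 108 and 98.8 on the subclone 19 arrays, against 31.5, 25.9 and 36.2 on those of subclone 23. Scara5 was near the floor in both, at 23.3, 25.1 and 17.6 on the subclone 19 arrays, against 17.2, 15.2 and 16.3 on those of subclone 23, and so was Itih5, at 12, 15.3 and 16.8 on the subclone 19 arrays, against 10.8, 11.8 and 9.02 on those of subclone 23. Scara5 and Itih5 were thus near the floor in both lines, and Crabp1 had a signal above the floor in subclone 19. On the log2 scale, Scara5 was at 5.98 or above and Itih5 at 5.08 or above in each of the other 6 subclones, and subclone 18 held the lowest of these levels for both. Crabp1 was at 5.48 in subclone 28, under its level in either member of the pair.

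Car9, Dppa4 and Mmp13 mark how the pair separates, and are likewise given as a description. Car9 encodes a membrane carbonic anhydrase that is a classical target of the hypoxia-inducible factors. It had 396, 584 and 607 on the subclone 19 arrays, against 62.8, 48.9 and 71.9 on those of subclone 23, a difference of 2.81 ± 0.14. On the log2 scale the mean was 9.07 in subclone 19 and 6.26 in subclone 23, and the means of the other 6 lay between 5.11 and 6.17. Dppa4, a chromatin protein of pluripotent cells, ran the other way, with 135, 139.7 and 146 on the subclone 19 arrays, against 1864, 1853 and 1890.1 on those of subclone 23, a difference of -3.59 ± 0.094. Subclone 23 had the highest Dppa4 mean of the 8 subclones (10.88), and subclone 19 (7.29) was in the middle of a range that began at 4.76. Mmp13, a collagenase, had 57.2, 56.6 and 62.4 on the subclone 19 arrays, against 226, 167 and 175 on those of subclone 23, a difference of -1.45 ± 0.081. Subclone 19 (6.22) had the lowest Mmp13 mean of the 8 subclones, with subclone 18 (7.28) and subclone 23 (7.67) next to it.

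**Figure D1:**
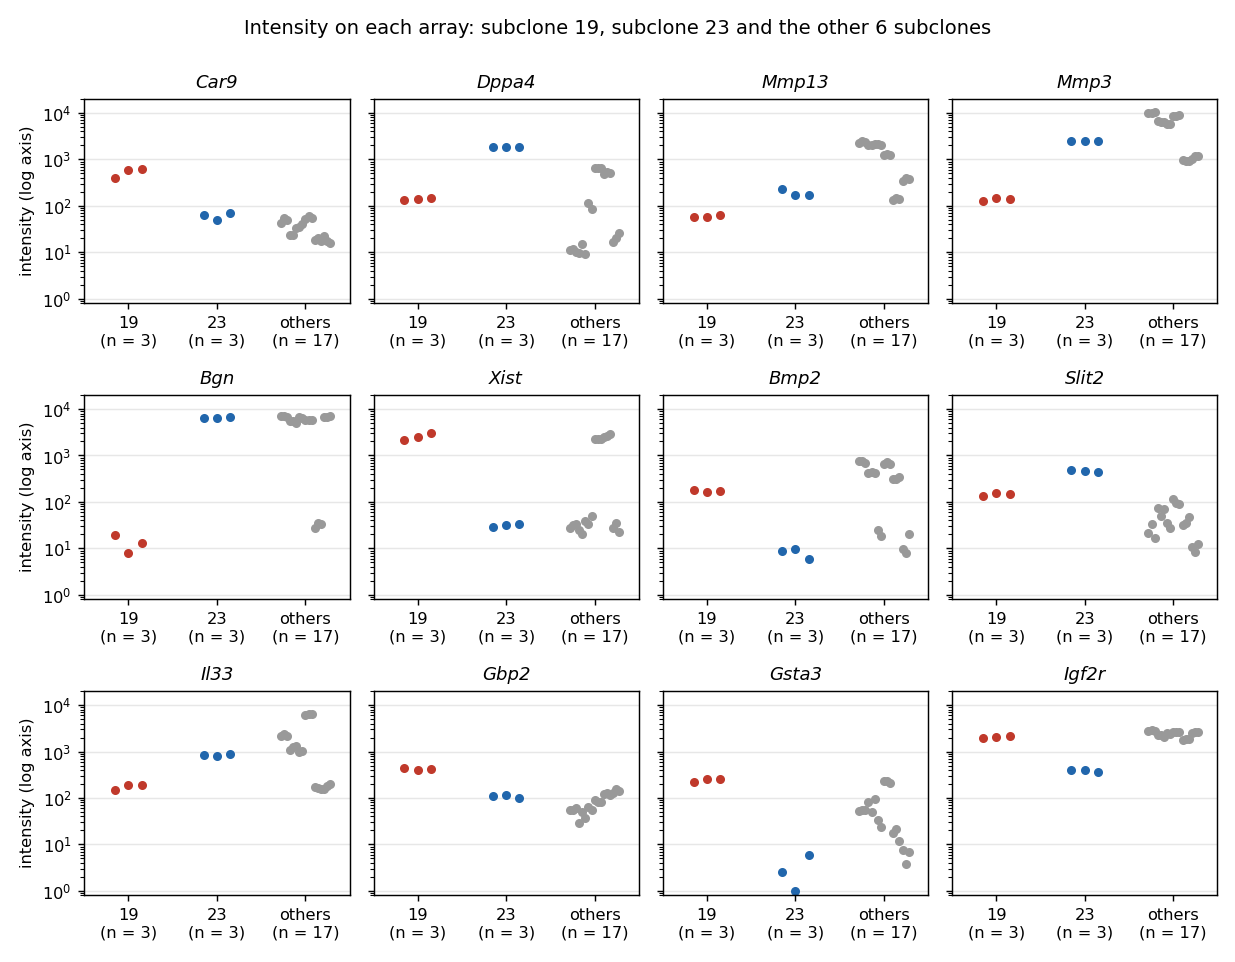
Intensity (log axis, arbitrary units) of 12 genes on each array, with 1 point per array, for subclone 19, subclone 23 and the other 17 arrays. The 12 genes were picked from those described in the text. The arrays of subclones 19 and 23 do not overlap for any of them, which also holds for 44.7% of all genes tested. Car9, Gsta3 and Xist are higher in subclone 19, while Dppa4, Mmp3 and Bgn are lower.

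The promoters of 4 of these genes are shown because they belong to groups described below: a hypoxia target, 2 matrix metalloproteinases of one gene cluster and a guanylate-binding protein. Each line holds the 250 bases before the annotated start (RefSeq, GRCm38.p6), 5′ to 3′ on the plus strand, and all 4 genes lie on that strand. The Car9 window is chr4:43506776-43507025, the Mmp13 window chr9:7272264-7272513, the Mmp3 window chr9:7445572-7445821 and the Gbp2 window chr3:142620413-142620662. Capitals mark a match to the core of the hypoxia response element (ACGTG or GCGTG) in Car9, to the AP-1 motif (TGACTCA or TGAGTCA) in Mmp13 and Mmp3, and to the interferon response motif (GAAA, any 2 bases, GAAA) in Gbp2. Both strands were searched, so a match on the minus strand reads as its reverse complement.
Car9: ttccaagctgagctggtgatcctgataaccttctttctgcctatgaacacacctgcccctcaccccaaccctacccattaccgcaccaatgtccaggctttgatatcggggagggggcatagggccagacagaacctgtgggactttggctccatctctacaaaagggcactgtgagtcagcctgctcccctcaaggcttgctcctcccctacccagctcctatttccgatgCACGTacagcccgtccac
Mmp13: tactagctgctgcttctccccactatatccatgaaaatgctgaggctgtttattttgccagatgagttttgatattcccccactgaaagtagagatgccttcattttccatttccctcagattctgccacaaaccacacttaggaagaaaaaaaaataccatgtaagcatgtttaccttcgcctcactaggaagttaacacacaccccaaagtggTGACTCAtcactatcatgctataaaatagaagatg
Mmp3: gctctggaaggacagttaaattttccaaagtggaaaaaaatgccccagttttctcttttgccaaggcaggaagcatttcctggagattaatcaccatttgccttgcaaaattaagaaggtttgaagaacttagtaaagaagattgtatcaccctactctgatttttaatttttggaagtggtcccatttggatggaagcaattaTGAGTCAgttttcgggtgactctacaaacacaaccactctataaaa
Gbp2: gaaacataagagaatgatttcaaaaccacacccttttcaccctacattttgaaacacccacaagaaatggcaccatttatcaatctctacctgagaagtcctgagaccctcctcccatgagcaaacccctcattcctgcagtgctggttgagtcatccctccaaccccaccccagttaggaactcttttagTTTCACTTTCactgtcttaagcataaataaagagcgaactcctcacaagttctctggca
The match began 18 bases before the start in Car9, 35 in Mmp13, 46 in Mmp3 and 59 in Gbp2. Among 32851 promoter windows of this length, 38.6% held the hypoxia core, 4.46% the AP-1 motif and 2.98% the interferon motif. A match describes letters only and is not a site that a factor was seen to bind. AP-1 letters also occurred in the windows of Car9 and Gbp2, and interferon letters in that of Mmp13, and these are left in lower case.

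Chromosome 1 had the largest median difference of any chromosome between the 2 lines. Of 1057 measured genes on it, 85 (8.04%) were called higher in subclone 19 and 2 (0.19%) lower, so that a chromosome with 1057 of 18193 genes held 85 of the 242 higher calls. Among its 616 genes with a mean of at least 6, the median difference was 0.64, and 514 (83.4%) were higher by adjusted p alone. Over all 10646 such genes the median was 0.00. In 15 consecutive blocks of 41 or 42 genes in annotated order, the block medians lay between 0.51 and 0.77. Set against the mean of the 8 subclones, the median of these chromosome 1 genes was 0.25, 0.27 and 0.26 log2 units on the arrays of subclone 19, against -0.34, -0.38 and -0.34 on those of subclone 23. The means of the other 6 subclones lay between -0.14 and 0.15, so subclone 19 had the highest and subclone 23 the lowest level of the 8 for this chromosome. DNA was not analysed here, and the cause of the shift was not tested.

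**Figure D2:**
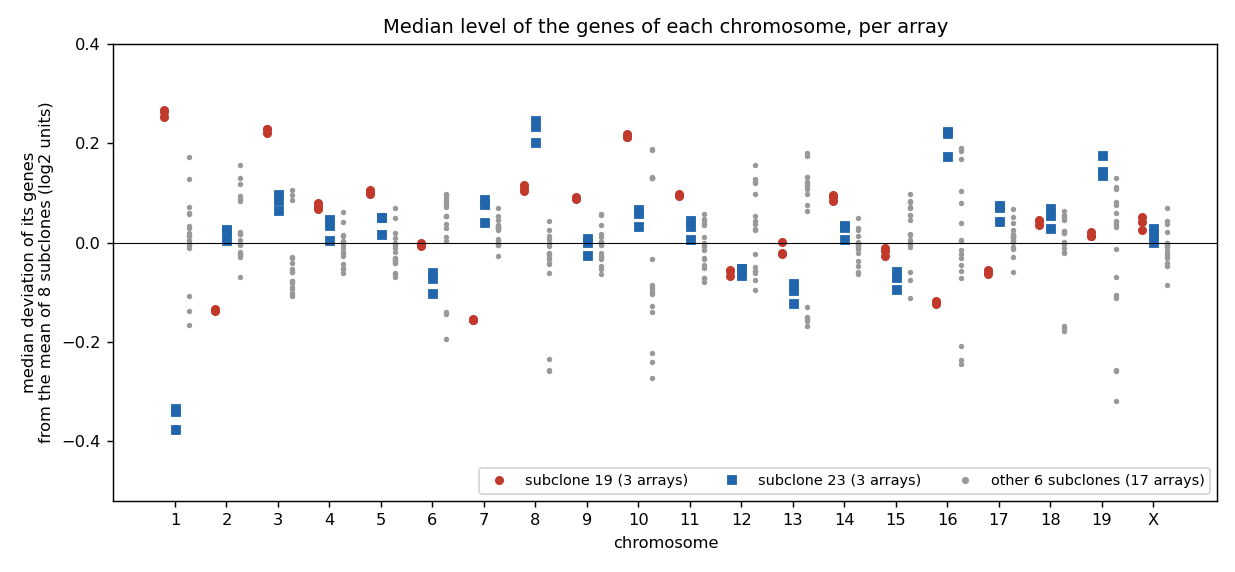
For each chromosome, the median over its genes (mean of at least 6 on the log2 scale) of the deviation from the mean of the 8 subclones, with 1 point per array. On chromosome 1 the 3 arrays of subclone 19 lie at 0.25 to 0.27 and the 3 arrays of subclone 23 at -0.34 to -0.38, and on chromosome 16 subclone 19 lies under subclone 23.

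Other chromosomes shifted by smaller amounts. On chromosome 16 the median difference was -0.33, with 241 of 338 genes (71.3%) lower by adjusted p and 11 (3.25%) higher. All 8 blocks of that chromosome had negative medians, from -0.39 to -0.17. Chromosome 7 followed with a median of -0.22 (431 of 793 genes lower), then chromosome 2 (-0.17), 19 (-0.14), 17 (-0.13) and 8 (-0.12). Medians above 0.1 were found on chromosomes 10 (0.15) and 3 (0.13). On chromosome 10 the first blocks in gene order lay at 0.20 to 0.39 and the block from Mfsd12 to 1810014B01Rik at -0.06. After each array was centred on its chromosome medians, 172 genes were called higher in place of 242, and 146 of these were among the 242. The calls higher on chromosome 1 then numbered 12 in place of 85, and those lower 15 in place of 2. This centring was added after the shifts had been seen.

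Most of the chromosome 1 calls were modest, with 68 of 85 under 1.5 log2 units and 4 at 2 or more. Gsta3, an alpha-class glutathione S-transferase, had 223, 256 and 261 on the subclone 19 arrays, against 2.53, 1 and 5.81 on those of subclone 23 (difference 3.79 ± 0.15, adjusted p = 1.05e-12). Tmem185b, a membrane protein gene, had 296, 274 and 258 on the subclone 19 arrays, against 12.2, 7.42 and 8.75 on those of subclone 23 (3.52 ± 0.079, adjusted p = 2.73e-16), and its level in the other 6 subclones lay between the 2 lines. Serpinb7, a clade B serine protease inhibitor, had 246, 223 and 238 on the subclone 19 arrays, against 20.1, 11.8 and 13 on those of subclone 23 (3.03 ± 0.11, adjusted p = 2.52e-13). The remaining gene of the 4 was Gm19589 (2.02 ± 0.091), which is next to Glrp1 (1.23 ± 0.084) and Sh3bp4 (1.04 ± 0.12) in a run of 3 neighbouring measured genes that were all called higher. A further run on this chromosome held Bag2, a co-chaperone of Hsp70 (1.43 ± 0.045), Zfp451 (1.18 ± 0.044) and Bend6 (1.51 ± 0.065). Aldehyde oxidase Aox1 (1.94 ± 0.076), the epoxide hydrolase Ephx1 (1.73 ± 0.049), the potassium channel gene Kcnh1 (1.96 ± 0.11), the antiproliferative p53 target Btg2 (1.77 ± 0.079), the Wnt receptor gene Fzd7 (1.89 ± 0.054) and the Hedgehog transcription factor gene Gli2 (1.58 ± 0.069) were also higher on chromosome 1, and the highest adjusted p among these 6 was that of Kcnh1, at 5.96e-11. Cd34, a surface sialomucin of progenitor and endothelial cells, was 1 of the 2 genes called lower on this chromosome (-1.06 ± 0.098).

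**Figure D3:**
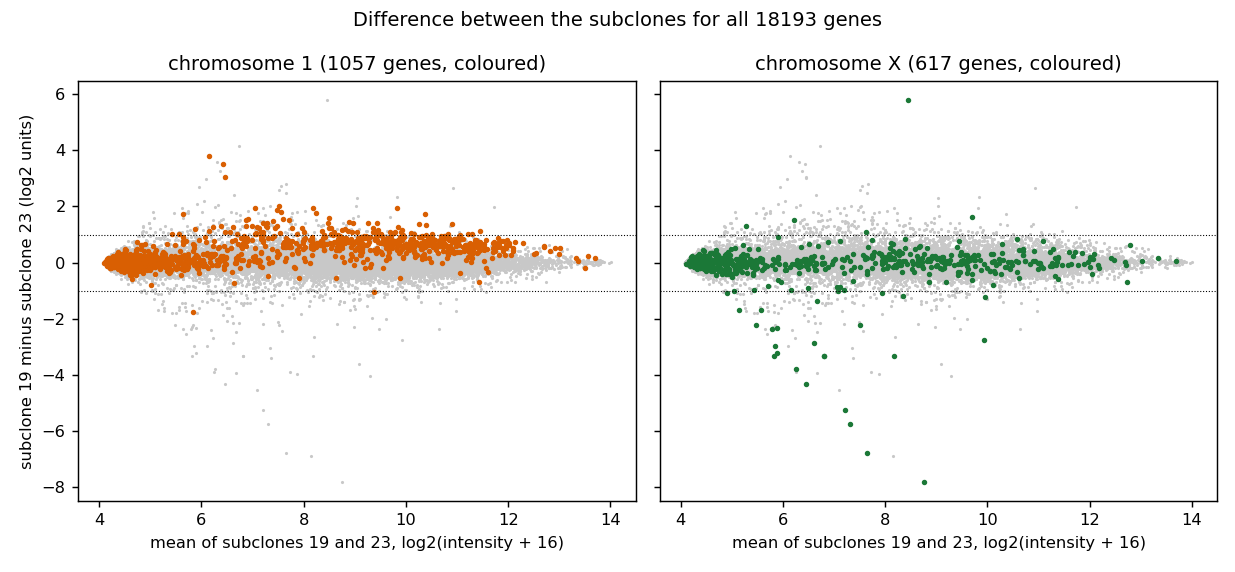
Difference between subclones 19 and 23 (log2 units, vertical) against the mean of both (log2(intensity + 16), horizontal) for 18193 genes, with chromosome 1 coloured in the left panel and chromosome X in the right. The median of the chromosome 1 genes with a mean of at least 6 is 0.64 and that of the X-linked ones 0.03, and the lowest X-linked gene, Bgn, lies at -7.80. Dotted lines mark differences of 1 and -1.

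The X chromosome showed a different pattern, with a median of 0.03 over 322 genes and a set of single genes near the floor in subclone 19. Of 617 measured X-linked genes, 26 (4.21%) were called lower, the highest share of any chromosome in that direction, and 18 of the 26 by at least 4-fold. The matrix proteoglycan gene Bgn (biglycan) had 19.3, 7.78 and 12.8 on the subclone 19 arrays, against 6300.2, 6388 and 6634 on those of subclone 23, the largest difference of all genes (-7.80 ± 0.093, adjusted p = 2.59e-20). Armcx2, an armadillo repeat gene, had 1.32, 4.88 and 3.36 on the subclone 19 arrays, against 2072, 2188 and 1999.9 on those of subclone 23 (-6.78 ± 0.068, adjusted p = 2.09e-21). Col4a5, a chain of basement membrane collagen, had 4.79, 5.06 and 6.62 on the subclone 19 arrays, against 1183, 1142 and 1111 on those of subclone 23 (-5.76 ± 0.054, adjusted p = 1.44e-21). In all 3 genes the subclone 19 arrays were near the floor, so the size of the difference is set by the floor. Tmem47 (-5.26 ± 0.068), the tetraspanin gene Tspan6 (-4.33 ± 0.078), Prrg1 (-3.80 ± 0.077) and the protocadherin gene Pcdh19 (-3.32 ± 0.11) were also lower, and Vegfd, a ligand for lymphatic vessel growth, was lower at -1.21 ± 0.067. A mean under 5.5 on the log2 scale was found for 18 of the 26 genes in subclone 19, against 1 in subclone 23. In subclone 18, 17 of the 26 were under 5.5 and 24 lay within 1 log2 unit of subclone 19, and in subclone 28 these numbers were 1 and 5.

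Xist, the non-coding RNA that coats the inactive X chromosome in female cells, was the largest difference in the other direction. It had 2201, 2494 and 3117 on the subclone 19 arrays, against 28.3, 31.4 and 33.3 on those of subclone 23 (5.79 ± 0.14, adjusted p = 1.34e-15). Subclones 18 (11.38) and 28 (11.18) shared the high level on the log2 scale, and the other subclones were at 5.82 or less. Of 10 listed genes of X inactivation and of genes that escape it, 6 were higher and 0 lower. Among them were the demethylase gene Kdm5c (0.58 ± 0.068), of which 2 other probe sets passed in the opposite direction and whose mean over all its probe sets did not pass (adjusted p = 0.103), and the translation factor gene Eif2s3x (0.38 ± 0.039). L1cam, a neural adhesion molecule on the same chromosome, was higher, with 108, 96.6 and 127 on the subclone 19 arrays, against 26.5, 27.6 and 30.9 on those of subclone 23 (1.51 ± 0.13, adjusted p = 2.68e-08). Of 6 measured Y-linked genes, 0 were higher and 1, Zfy2, was lower (-0.33 ± 0.12), and 0 of the 6 had a mean of at least 6. Zfy2 no longer passed without subclone 23 replicate 1 (adjusted p = 0.149) and in 5 other alternatives.

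Matrix metalloproteinases, which cut collagen and other matrix proteins, included some of the larger differences off chromosomes 1 and X. Of 21 measured metalloproteinases and their TIMP inhibitors besides Mmp13, 8 (38.1%) were lower and 1 (4.76%) higher, with a median of -0.19 against 0.01 for all genes. The higher count was 2 without subclone 23 replicate 3. Of the 12 with a mean of at least 6, 7 (58.3%) were lower. Mmp3, stromelysin-1, had 129, 148 and 141 on the subclone 19 arrays, against 2508, 2526 and 2491 on those of subclone 23 (-4.03 ± 0.050, adjusted p = 4.51e-20). Its difference of 16.3-fold is between 2 levels that both stood well above the floor. Mmp10 and Mmp12, stromelysin-2 and macrophage metalloelastase, were lower by less. Mmp10 had 34.3, 37.2 and 33.1 on the subclone 19 arrays, against 95.4, 80.2 and 102 on those of subclone 23 (-1.09 ± 0.084), and Mmp12 had 4.24, 11.8 and 8.86 on the subclone 19 arrays, against 46.8, 30.6 and 33.5 on those of subclone 23 (-1.12 ± 0.13). Of the inhibitors, Timp3 (-0.92 ± 0.11) was lower and Timp4 (0.51 ± 0.12) higher, although Timp4 did not pass as the mean of its probe sets (adjusted p = 0.0532).

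Mmp13, Mmp12, Mmp3 and Mmp10 lie in one cluster on chromosome 9, among measured genes with Mmp1b, Mmp1a, Mmp8, Mmp20 and Mmp7. Of these others, Mmp1a passed (-0.39 ± 0.098) at a level near the floor in both lines. It is named because it was the 1 further gene of the cluster to pass, and it did not in a fit of the 6 arrays alone (adjusted p = 0.054). Close to the cluster in gene order lies a run of 3 inflammatory caspase genes, and these were higher. Casp1, the protease that activates interleukin 1 beta and interleukin 18, had 1165, 1115 and 1143 on the subclone 19 arrays, against 244, 215 and 206 on those of subclone 23 (2.29 ± 0.057, adjusted p = 1.42e-15). Casp4, the murine caspase-11 gene and a sensor of cytosolic endotoxin, had 1074, 1029 and 978 on the subclone 19 arrays, against 253, 229 and 252 on those of subclone 23 (2.0 ± 0.060, adjusted p = 2.11e-14), and Casp12 had a difference of 1.21 ± 0.067. The median difference of chromosome 9 was 0.09.

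Among 32 serine proteases, cathepsins, ADAM proteases and inhibitors, 12 (37.5%) were lower and 8 (25%) higher. Besides Serpinb7, described above, the higher members included the lysosomal protease gene Ctsh (0.62 ± 0.10). Hpse, heparanase (0.83 ± 0.089), was also higher and is counted in this list, although it cuts heparan sulfate and is not a protease. Adam19, a membrane-bound sheddase, had 33.5, 37.2 and 32.6 on the subclone 19 arrays, against 211, 195 and 219 on those of subclone 23 (-2.15 ± 0.080, adjusted p = 3.75e-13). The cystatin gene Cst6, an inhibitor of lysosomal cysteine proteases, was lower (-1.69 ± 0.050), as were the aggrecanase family gene Adamts1 (-1.30 ± 0.053) and the tissue plasminogen activator gene Plat (-1.03 ± 0.051). Adamts1 lies on chromosome 16, whose median was -0.33.

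Genes of the matrix itself were more often lower than higher. Of 48 matrix glycoproteins and proteoglycans besides Itih5, 16 (33.3%) were lower and 10 (20.8%) higher, and 6 of the lower members passed the 2-fold mark against 1 of the higher. Of the 25 with a mean of at least 6, 13 (52%) were lower and 6 (24%) higher, against 26.5% and 28.7% of all such genes. Efemp1, fibulin-3, had 14.5, 6.98 and 9.94 on the subclone 19 arrays, against 3163, 3106 and 2915 on those of subclone 23 (-6.87 ± 0.11, adjusted p = 2.65e-18). Cthrc1, a secreted protein of remodelling tissue, had 4.58, 3.2 and 3.46 on the subclone 19 arrays, against 289, 247 and 296 on those of subclone 23 (-3.89 ± 0.13), and Fam20c, the kinase of secreted phosphoproteins, had 41.4, 48 and 34.8 on the subclone 19 arrays, against 469, 453 and 428 on those of subclone 23 (-3.03 ± 0.11). For Efemp1 and Cthrc1 the subclone 19 arrays were under 16, so these differences have no firm upper bound. Dcn (decorin), which binds collagen fibrils and TGF-beta, was lower (-2.02 ± 0.072) with a signal well above the floor in both, at 371, 366 and 375 on the subclone 19 arrays, against 1565, 1516 and 1565 on those of subclone 23. Of 31 collagen chains, 7 (22.6%) were lower and 2 (6.45%) higher, and the higher count was 1 when subclone 19 replicate 2 or 3, or subclone 23 replicate 1 or 3, was left out. Col6a1 (-2.35 ± 0.063) and Col6a2 (-2.66 ± 0.071), neighbouring chains of the beaded filament collagen VI on chromosome 10, were both lower. Col6a2 had 111, 97.4 and 95.5 on the subclone 19 arrays, against 683, 726 and 759 on those of subclone 23. Ltbp2, a latent TGF-beta binding protein family member, was the higher member past the 2-fold mark (1.09 ± 0.094).

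Of 51 integrins, cadherins and other adhesion molecules, 20 (39.2%) were lower and 8 (15.7%) higher. Besides Pcdh19, Alcam, an adhesion molecule of activated leukocytes and carcinoma cells, was lower (-1.28 ± 0.044, on chromosome 16), as was N-cadherin, Cdh2 (-1.02 ± 0.073). The glypican gene Gpc1 was higher (1.17 ± 0.051, on chromosome 1). Of 29 mesenchymal genes, 15 (51.7%) were lower and 0 higher, with a median of -0.16. Of the 23 with a mean of at least 6, 14 (60.9%) were lower. Without subclone 19 replicate 1 or subclone 23 replicate 3, 1 member was higher. The count is 21 lower and 0 higher, with a median of -0.22, when chromosome medians are removed. The transcription factor gene Zeb2 (-0.66 ± 0.078), which represses epithelial genes, and the matrix protein gene Sparc (-0.62 ± 0.049) were among them, both by under 2-fold. Of 38 epithelial genes, 6 (15.8%) were lower and 4 (10.5%) higher, and of the 10 with a mean of at least 6, 3 were lower and 3 higher. The tight junction gene Ocln was higher (1.47 ± 0.082), with 241, 227 and 222 on the subclone 19 arrays, against 80.1, 67.1 and 72.4 on those of subclone 23, and the keratin gene Krt19 was lower (-1.51 ± 0.15), with 19.1, 15.9 and 17.4 on the subclone 19 arrays, against 88.8, 69.2 and 80.7 on those of subclone 23.

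Hypoxia and glycolysis genes held Car9 and a number of smaller differences. Of 39 measured members besides Car9, 16 (41%) were higher and 4 (10.3%) lower, none by 2-fold, with a median of 0.11, and no member lies on chromosome 1. Pfkfb3, which makes the allosteric activator of phosphofructokinase, had 133, 140.1 and 119.7 on the subclone 19 arrays, against 62.5, 57.6 and 59.1 on those of subclone 23 (0.96 ± 0.079, adjusted p = 1.67e-08). The transcription factor gene Bhlhe40 (0.74 ± 0.085), the glucose transporter gene Slc2a3 (0.66 ± 0.070), and hexokinase Hk2 (0.61 ± 0.060) were higher by under 2-fold. The lactate exporter gene Slc16a3 (-0.55 ± 0.15) and Angptl4, an inhibitor of lipoprotein lipase that hypoxia and fatty acids induce (-0.45 ± 0.090), were lower. Of 19 carbonic anhydrases and pH regulators besides Car9, 2 (10.5%) were higher, among them the carbonic anhydrase gene Car2 (0.47 ± 0.090), and 3 (15.8%) lower, of which 1 passed without subclone 23 replicate 1. Of 41 oxidative phosphorylation subunits, 22 (53.7%) were higher and 4 (9.76%) lower, with no difference of 2-fold, and all 41 had a mean of at least 6. All 5 subunits on chromosome 1 were higher, led by the complex I gene Ndufb3 (0.82 ± 0.036), and off that chromosome 17 of 36 were higher and 4 lower. With chromosome medians removed, 21 of the 41 were higher and 0 lower.

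Guanylate-binding proteins are GTPases that interferon induces and that attack vacuoles of pathogens, and 4 of them were called higher in subclone 19. They were among the 5 called higher of 41 members of the wider list below, against 1.33% of all genes tested. They are named as the largest differences of that list, and the share of the whole family is not given. Gbp2 had 436, 404 and 426 on the subclone 19 arrays, against 113, 113 and 102 on those of subclone 23 (1.81 ± 0.10, adjusted p = 8.89e-11), and Gbp7 had 362, 340.5 and 381 on the subclone 19 arrays, against 123, 99.7 and 96.5 on those of subclone 23 (1.63 ± 0.11, adjusted p = 8.77e-10). Gbp3 had 121, 104 and 102 on the subclone 19 arrays, against 12.2, 15 and 12.1 on those of subclone 23 (2.10 ± 0.10), and Gbp8 had 129.9, 114 and 131 on the subclone 19 arrays, against 13.3, 10.3 and 21.6 on those of subclone 23 (2.20 ± 0.12). Gbp3 and Gbp8 were near the floor on all 3 arrays of subclone 23. The genes of this family are similar in sequence, so a probe set can read more than 1 of them. Gbp2, Gbp3 and Gbp7 lie in one cluster on chromosome 3, whose median difference was 0.13, and Gbp8 lies on chromosome 5. Gbp2b, in the same cluster, did not pass (0.23, adjusted p = 0.213). Kyat3, a kynurenine aminotransferase gene that comes after Gbp2 in gene order, was called higher too (1.48 ± 0.10, adjusted p = 1.73e-09), and is named after its value was seen.

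The wider list of these proteins and interferon-stimulated genes had 18 of 41 members higher (43.9%) and 5 lower (12.2%), with a median of 0.20. Of the 27 with a mean of at least 6, 13 (48.1%) were higher and 5 (18.5%) lower. The tripartite motif gene Trim30a (1.04 ± 0.094) was the 1 further member past the 2-fold mark, and the chemokine gene Cxcl10 (0.81 ± 0.12) was higher by less. Ifit2 (-0.57 ± 0.047), Ifi204 (-0.56 ± 0.14) and Ifit3 (-0.30 ± 0.084), which interferon also induces, were lower, and Ifit3 no longer passed with chromosome medians removed (adjusted p = 0.159). Of 19 genes of antigen presentation by MHC class I, 7 (36.8%) were higher and 5 (26.3%) lower, none by 2-fold, with the peptide transporter gene Tap2 at 0.50 ± 0.10 and the transactivator gene Nlrc5 at -0.59 ± 0.096. These counts depended on single arrays. The higher count was 4 without subclone 19 replicate 1, subclone 19 replicate 2 or subclone 23 replicate 2, and the lower count was 3 without subclone 23 replicate 1. With chromosome medians removed, 8 were higher and 1 lower.

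Of 20 listed leukocyte markers, 3 (15%) were higher, against 18.9% of all genes tested, and 0 lower, or 1 lower without subclone 23 replicate 3. Most of the 20 had low signals, and of the 5 with a mean of at least 6, 3 (60%) were higher and 0 lower. These 3 were the lysozyme gene Lyz2 (1.77 ± 0.064), the lysosomal marker gene Cd68 (1.76 ± 0.096) and the endotoxin co-receptor gene Cd14 (0.73 ± 0.050). Itgb2, the beta chain of leukocyte integrins, is not in that list. It had 401, 469.9 and 434 on the subclone 19 arrays, against 51.6, 51.2 and 74.3 on those of subclone 23 (2.60 ± 0.11, adjusted p = 2.79e-12). Also outside the list, Lyz1 (2.47 ± 0.091) and the adaptor gene of B cell receptor signalling Blnk (2.02 ± 0.13) were higher. Lyz1 and Lyz2 are close copies whose signals may not be separable. The summed intensity of the 20 markers was 1437, 1497 and 1449 on the arrays of subclone 19, against 810.0, 799.9 and 793.8 on those of subclone 23, and 958.7 to 1442 on the other arrays. The defining leukocyte gene Ptprc lay between 1.53 and 8.04 over the 6 arrays, Adgre1 of macrophages between 6.01 and 13.1, Itgam between 7.68 and 19.8 and Cd3e of T cells between 2.23 and 9.88, all near or under the floor. Csf1r, between 104 and 155, and Cd8a, between 79.7 and 106, stood above it in both lines. The part of other cells in the interferon group was not tested.

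Markers of other cell types gave low or mixed levels. Of 19 endothelial, fibroblast and adipocyte markers, 0 were higher and 4 lower (21.1%), against 16.7% of all genes tested. All 4 that had a mean of at least 6 were lower. The summed intensity of the 19 was 1343 to 1377 in subclone 19, against 2997 to 3115 in subclone 23. On the other arrays it was 1211.8 to 6024.5, a range that holds both lines. The 4 were Dcn, Pdgfra (-0.71 ± 0.051), Eng (-0.39 ± 0.066) and Fabp4, a fatty acid binding protein (-1.44 ± 0.11), while Pecam1 (3.91 to 15.6), Cdh5 (11.6 to 22.7), Lum (9.53 to 14.0), Col1a1 (6.14 to 17.7) and Adipoq (7.58 to 14.2) were close to the floor on all 6 arrays. Of 16 lung epithelial markers, 4 (25%) were higher, against 18.9% of all genes tested, and 0 lower, or 1 lower without subclone 23 replicate 2. Of the 4 with a mean of at least 6, 2 were higher and 0 lower. The higher members were led by the endoderm factor genes Foxa2 (0.93 ± 0.071) and Foxa1 (0.71 ± 0.13). Foxa2 lay between 126 and 304 over the 6 arrays, and Foxa1, at 13.4 to 39.0, reached down to the floor. The surfactant gene Sftpc (10.7 to 26.0), the lung lineage factor Nkx2-1 (1.87 to 5.65) and the club cell gene Scgb1a1 (4.19 to 19.8) were at or close to the floor. The alveolar genes Hopx (859 to 953), Abca3 (263 to 382) and Sftpb (74.8 to 93.3) stood above it on all 6 arrays.

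**Figure D4:**
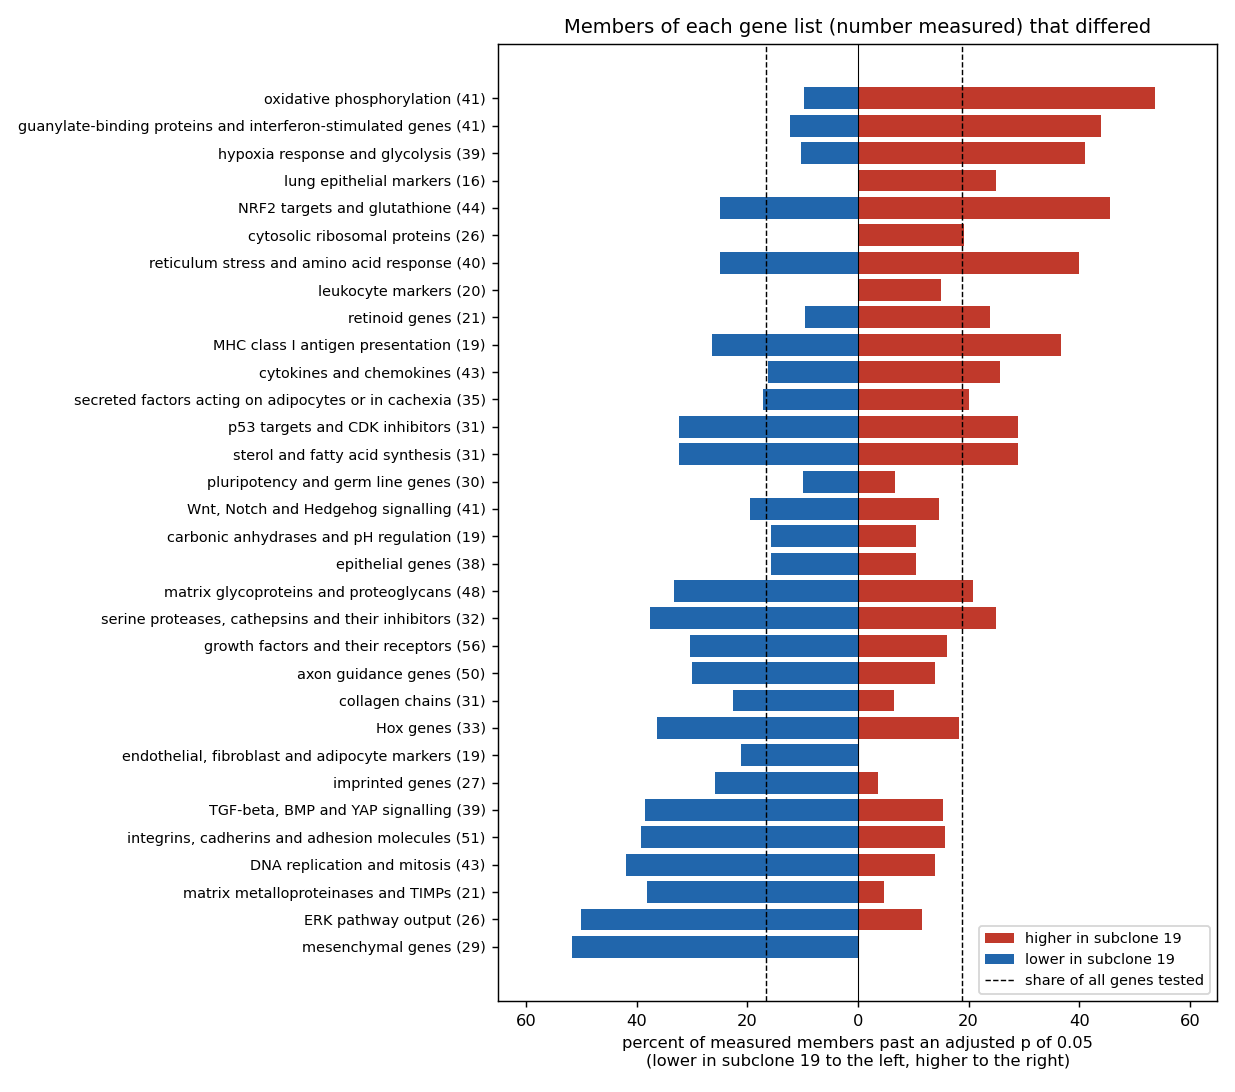
Percent of the measured members of each gene list that were higher (to the right) or lower (to the left) in subclone 19 at an adjusted p under 0.05, for lists with at least 15 measured members, whose number is in parentheses, with the 6 genes that chose or mark the pair left out. Dashed lines mark the shares over all genes tested, 18.9% higher and 16.7% lower, and mesenchymal genes, with 51.7% lower and 0 higher, and oxidative phosphorylation, with 53.7% higher, have the longest bars to the left and to the right.

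Secreted signals separated the lines gene by gene. Of 43 cytokines and chemokines, 11 (25.6%) were higher and 7 (16.3%) lower. Il33, an alarmin released by damaged cells, had 149, 187 and 186 on the subclone 19 arrays, against 833, 796 and 885 on those of subclone 23 (-2.17 ± 0.091, adjusted p = 1.73e-12). Il11, a cytokine of the gp130 family, had 89.2, 93.1 and 95.5 on the subclone 19 arrays, against 239, 242 and 212 on those of subclone 23 (-1.18 ± 0.086, adjusted p = 2.85e-09), whereas Lif, of the same family, was higher, with 331, 399.9 and 366 on the subclone 19 arrays, against 241, 209 and 207 on those of subclone 23 (0.70 ± 0.093, adjusted p = 7.3e-06). Ccl5, a chemokine for T cells and monocytes, had 102, 100.4 and 109.9 on the subclone 19 arrays, against 16.6, 20.7 and 18.8 on those of subclone 23 (1.79 ± 0.13, adjusted p = 2.31e-09). Cxcl2, which draws neutrophils, was lower (-1.03 ± 0.056), as was Il15 (-1.03 ± 0.085), which sustains natural killer cells.

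Of 35 secreted factors linked to fat cells or to tumour wasting, 7 (20%) were higher and 6 (17.1%) lower, close to the background in both directions. Bmp2, a bone morphogenetic protein, had 181, 167 and 175 on the subclone 19 arrays, against 8.58, 9.8 and 5.9 on those of subclone 23 (2.98 ± 0.11, adjusted p = 3.82e-13). Subclone 23 was at the floor for it. Fstl1, a secreted follistatin-like glycoprotein, had 693, 691 and 669 on the subclone 19 arrays, against 3474, 3726 and 3691 on those of subclone 23 (-2.38 ± 0.043, adjusted p = 1.17e-17), and lies on chromosome 16. Slit2, an axon guidance ligand, of which a fragment acts on fat cells, had 133, 156 and 147 on the subclone 19 arrays, against 480.0, 456 and 436 on those of subclone 23 (-1.56 ± 0.15, adjusted p = 7.81e-08). The 2 lines had the highest Slit2 means of the series, at 7.33 in subclone 19 and 8.89 in subclone 23, with the other 6 at 6.84 or less.

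Of 56 growth factors and receptors, 17 (30.4%) were lower and 9 (16.1%) higher. The brain-derived neurotrophic factor gene Bdnf had 321, 329.5 and 352 on the subclone 19 arrays, against 873, 821 and 857 on those of subclone 23 (-1.31 ± 0.056, adjusted p = 2.48e-12), and the placental growth factor gene Pgf was at -1.10 ± 0.14. Egfr, the receptor of epidermal growth factor, was lower at -1.16 ± 0.073, with 98.2, 94.3 and 104 on the subclone 19 arrays, against 263, 219 and 242 on those of subclone 23, while one of its ligands, Tgfa, was higher at 1.45 ± 0.096, with 228, 248 and 231 on the subclone 19 arrays, against 80.8, 75.5 and 71.4 on those of subclone 23. Igfbp7, a binding protein of insulin-like growth factors, was at -1.40 ± 0.062, and Gas6, the ligand of the Axl receptor, at 1.36 ± 0.074. Lifr, the receptor of Lif, was higher, with 47.3, 46.8 and 50.4 on the subclone 19 arrays, against 14.9, 9.09 and 11.6 on those of subclone 23 (1.21 ± 0.083).

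Igf2r, a receptor that clears insulin-like growth factor 2 and an imprinted gene expressed in mice from the maternal copy in most tissues, had 1938, 2031 and 2119 on the subclone 19 arrays, against 398, 399.7 and 371 on those of subclone 23 (2.33 ± 0.049, adjusted p = 8.14e-17). Here subclone 23 was the member that differed from the rest: its mean of 8.66 compares with 11.00 in subclone 19 and 10.82 to 11.45 in the other 6. Ndn (necdin), an imprinted gene expressed from the paternal copy, had 29.3, 36.5 and 38.5 on the subclone 19 arrays, against 524, 512 and 532 on those of subclone 23 (-3.41 ± 0.085, adjusted p = 1.34e-15), and 7 of its 8 probe sets passed in that direction. Peg3 (-0.52 ± 0.053) and Grb10 (-0.43 ± 0.044) were lower by less. Of 27 imprinted genes, 7 (25.9%) were lower and 1 (3.70%) higher, Igf2r itself, with a median of -0.04 that turns to 0.13 when chromosome medians are removed.

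Of 50 axon guidance genes, 15 (30.0%) were lower and 7 (14.0%) higher, and 7 against 1 passed the 2-fold mark. The secreted semaphorin gene Sema3b had 58.5, 52.9 and 47.2 on the subclone 19 arrays, against 307, 305 and 284 on those of subclone 23 (-2.19 ± 0.10, adjusted p = 8.19e-12), and Sema3a (-1.55 ± 0.048), Sema3c (-1.28 ± 0.064) and the transmembrane Sema6d (-1.43 ± 0.058) were lower too. The plexin receptor gene Plxna2 was higher (1.00 ± 0.091, on chromosome 1).

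Hox genes set position along the body axis in the embryo. Hoxc4 (1.82 ± 0.083), Hoxc5 (1.42 ± 0.088) and Hoxc8 (1.08 ± 0.15) of the C cluster were higher, with Hoxc4 at 45.4, 39.6 and 55.3 on the subclone 19 arrays, against 1.03, 2.3 and 1.77 on those of subclone 23. Hoxb9 (-1.73 ± 0.14), Hoxb2 (-1.22 ± 0.070), Hoxb4 (-0.88 ± 0.13) and Hoxb3 (-0.79 ± 0.059) of the B cluster were lower, with Hoxb9 at 12.3, 10.9 and 14.7 on the subclone 19 arrays, against 85.5, 72 and 79.6 on those of subclone 23. The antisense transcript Hoxb5os of the B cluster had 10.9, 13.8 and 12.6 on the subclone 19 arrays, against 619, 596 and 703 on those of subclone 23 (-4.52 ± 0.076, adjusted p = 4.59e-18). In all, 6 of 33 Hox genes (18.2%) were higher and 12 (36.4%) lower. Of 30 pluripotency and germ line genes besides Dppa4, 2 (6.67%) were higher and 3 (10%) lower, none by 2-fold. The higher count was 1 without subclone 19 replicate 1, subclone 23 replicate 2 or subclone 23 replicate 3. The oncofetal genes Igf2bp1 (-0.43 ± 0.045) and Hmga2 (-0.35 ± 0.054) were lower by small amounts.

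Glutathione and NRF2 target genes were more often higher than lower. Of 44 measured, 20 (45.5%) were higher and 11 (25%) lower, and off chromosome 1 the counts were 16 and 11 of 40. Of the 37 with a mean of at least 6, 16 (43.2%) were higher and 11 (29.7%) lower. Over all such genes the shares were 28.7% and 26.5%, so the lower share was near the background. Oplah, 5-oxoprolinase of the glutathione cycle, had 36.4, 56.6 and 39.5 on the subclone 19 arrays, against 916, 866 and 949.9 on those of subclone 23 (-3.96 ± 0.080, adjusted p = 5.34e-17). Selenop, the plasma carrier of selenium, had 159.9, 164 and 151 on the subclone 19 arrays, against 445, 404 and 452 on those of subclone 23 (-1.37 ± 0.071, adjusted p = 3.32e-11), and both lines lay under the other 6, whose lowest mean was 10.58. The haem oxygenase gene Hmox1 had 605, 644 and 388 on the subclone 19 arrays, against 296, 234 and 142 on those of subclone 23 (1.25 ± 0.21, adjusted p = 7.58e-05), and the alpha-class transferase gene Gsta2 (1.10 ± 0.15) was higher. Gsta2 and Gsta3 are close relatives, and their probe sets may share signal. Nqo1, a reference target of NRF2, was lower (-0.68 ± 0.067).

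Of 26 genes that report output of the ERK pathway, 13 (50%) were lower and 3 (11.5%) higher, with a median of -0.19 that becomes -0.08 when chromosome medians are removed. Dusp1, a phosphatase that switches off MAP kinases, had 254, 262 and 260.2 on the subclone 19 arrays, against 732, 679 and 698 on those of subclone 23 (-1.39 ± 0.080, adjusted p = 1.23e-10). The feedback inhibitor genes Spry1 (-0.63 ± 0.10), Spry2 (-0.58 ± 0.039) and Spred3 (-0.71 ± 0.055) were lower by less, and Myc was higher (0.90 ± 0.058), with 3259, 3482 and 3587 on the subclone 19 arrays, against 1846, 1742 and 1906 on those of subclone 23. Of 39 genes of TGF-beta, BMP and YAP signalling, 15 (38.5%) were lower and 6 (15.4%) higher. Grem1, a secreted antagonist of BMP proteins, had 276, 269 and 270.0 on the subclone 19 arrays, against 953, 845 and 879 on those of subclone 23 (-1.66 ± 0.066, adjusted p = 8.47e-13). Bmper, a modulator of BMP signalling, was at -1.46 ± 0.11, and Id3, a direct BMP target, at 1.19 ± 0.099, although the related Id1 was lower (-0.46 ± 0.062). Of 41 Wnt, Notch and Hedgehog genes, 8 (19.5%) were lower and 6 (14.6%) higher, with Wnt7b (1.30 ± 0.12) as the higher ligand and the Notch feedback gene Nrarp (-1.14 ± 0.093) lower.

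Genes of cell division differed by small amounts. Of 43 genes of DNA replication and mitosis, 18 (41.9%) were lower and 6 (14.0%) higher, with a median of -0.15 and no 2-fold difference. The proliferation marker gene Mki67 was at -0.67 ± 0.062 and the ubiquitin-conjugating enzyme gene Ube2c at -0.55 ± 0.064. The largest higher values, of the helicase subunits Mcm3 (0.94 ± 0.047) and Mcm6 (0.81 ± 0.043) and of the kinetochore gene Cenpf (0.50 ± 0.079), belong to the 3 members on chromosome 1, and off that chromosome 3 of 40 were higher and 18 lower. Cenpf turned to -0.11 with chromosome medians removed. With chromosome medians removed, 19 members were lower and 7 higher, with a median of -0.11. Tpx2 (-0.48 ± 0.063), on chromosome 2, and Rrm1 (-0.50 ± 0.065), on chromosome 7, were among the lower members. Of 31 p53 targets and inhibitors of cyclin-dependent kinases, 9 (29.0%) were higher and 10 (32.3%) lower, with Mdm2 at 0.39 ± 0.063 and the proapoptotic gene Bbc3 at -0.61 ± 0.18. Of the 26 with a mean of at least 6, 9 (34.6%) were higher and 9 (34.6%) lower, against 28.7% and 26.5% of all such genes. With chromosome medians removed, 5 of the 31 were higher and 6 lower. Bbc3 no longer passed without subclone 23 replicate 1 (adjusted p = 0.0638) or replicate 2 (adjusted p = 0.055). Of 31 genes that make sterols and fatty acids, 9 (29.0%) were higher and 10 (32.3%) lower, none by 2-fold and close to the shares of genes with a mean of at least 6, with Fads1, a fatty acid desaturase, at -0.76 ± 0.060. Of 40 genes of the unfolded protein response and of amino acid shortage, 16 (40%) were higher and 10 (25%) lower, with Nupr1, a stress-induced chromatin protein, at -1.04 ± 0.059. Of 26 cytosolic ribosomal proteins, 5 (19.2%) were higher and 0 lower, all by 0.25 or less. Of 21 retinoid genes besides Crabp1, 5 (23.8%) were higher and 2 (9.52%) lower, or 1 lower without subclone 19 replicate 1, with the retinol dehydrogenase gene Rdh10 at 0.77 ± 0.068 on chromosome 1, which no longer passed with chromosome medians removed (adjusted p = 0.0876).

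The other 6 subclones were set beside the pair at each called gene. Of the 242 genes higher in subclone 19, the median of the other 6 means was nearer to subclone 23 for 149 and nearer to subclone 19 for 93. Of the 180 lower genes the numbers were 113 and 67. Oplah is a gene for which subclone 19 lay apart from all 7 others, while for Bgn subclone 18 (5.59) and for Efemp1 subclone 28 (4.69) were also low. B3galnt1, which makes the globoside glycolipid, had 463, 427 and 414 on the subclone 19 arrays, against 9.1, 8.35 and 9.96 on those of subclone 23 (4.16 ± 0.12, adjusted p = 1.71e-14), and subclone 18 (9.0) shared the high level. Subclone 28 (6.31) lay between the 2 lines for this gene. For Igf2r and Tmem185b, described above, subclone 23 lay under all 7 others, and so it did for Tmem176a, a membrane protein gene of immune cells, which had 5011, 4799 and 4847 on the subclone 19 arrays, against 764, 727 and 786 on those of subclone 23 (2.66 ± 0.052, adjusted p = 3.19e-17). App, the amyloid precursor protein gene, had 8.82, 9.89 and 11 on the subclone 19 arrays, against 376, 376 and 395 on those of subclone 23 (-3.94 ± 0.074, adjusted p = 2.02e-17), and it was near the floor in each other subclone except subclone 18 (8.49). Of its 4 probe sets, 2 passed in this direction and 0 in the other. Zfp503, a zinc finger repressor gene, had 244, 259.6 and 268 on the subclone 19 arrays, against 8.97, 7.36 and 4.59 on those of subclone 23 (3.58 ± 0.099, adjusted p = 5.51e-15), and subclones 28 (10.03) and 6 (7.24) were the others well above the floor.

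Genes in which the 2 lines lay together beyond all other subclones, and yet differed from each other, numbered 6 of the 242 higher and 8 of the 180 lower, by a comparison of means with no margin. In the first set, besides Car9, Blnk and Gbp8, were Cdkl2, a kinase gene (1.08 ± 0.073), and Abhd3, a lipase gene (1.30 ± 0.10). For Gbp8, subclone 23 was at the floor with the others. For Abhd3, subclone 23 had 19.5, 15.4 and 18.2, also close to the floor. For Cdkl2, its mean of 7.35 on the log2 scale was close to that of subclone 24 (7.30). On the log2 scale the means of subclone 23 were 6.26 for Car9 and 6.32 for Blnk. In the second, Thbd, thrombomodulin, the endothelial receptor of thrombin, had 78.5, 87.7 and 85.9 on the subclone 19 arrays, against 254, 258 and 232 on those of subclone 23 (-1.40 ± 0.057, adjusted p = 1.16e-12), under a lowest mean of 8.27 elsewhere. Septin4 (-1.46 ± 0.079) and Pnma2 (-1.72 ± 0.10) were also lowest in this pair. For 71 called genes, 50 higher and 21 lower, the 2 lines lay on opposite sides of all 6 others. In 57 of the 242 higher and 56 of the 180 lower genes, the lower of the 2 means was under 5.5, so that the fold rests on a level near the floor.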

How the data were processed

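Total RNA of 8 LLC subclones was measured on 23 Affymetrix arrays, of which 3 belong to subclone 19 and 3 to subclone 23. Biotin-labelled cRNA was hybridised, per the labels' protocols. The values are linear intensities as deposited by the authors; how they were computed and scaled is not given in the sources used here. Detection calls and batches were not used here. Arrays of the 2 subclones had medians of 41.5 to 45.7, and for arrays their number limits the precision.

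Of 45101 probe sets, 64 controls were left out, 34945 had 1 gene symbol in the platform annotation, 932 had several and 9160 were not listed. Only those with 1 symbol were used, and 34741 symbols were brought up to date by matching Entrez identifiers to RefSeq genes of GRCm38.p6, a table that also gave chromosomes and gene order. Each of 18193 genes was represented by its probe set with the highest mean over all arrays.

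Values were taken as log2(intensity + 16). A linear model with 1 coefficient per subclone was fitted to all 23 arrays by lmFit and eBayes of limma 3.58.1 (R 4.3.3), and the contrast subclone 19 minus subclone 23 was tested two-sided with Benjamini-Hochberg adjustment over all genes. A call needed an adjusted p under 0.05 and a difference of at least 1 log2 unit. The fit was run on simulated data with independent noise and a limited set of changed genes. That setting held no shifts of whole chromosomes, so it checks the running of the fit and not the calls reported here. Gene lists, chromosomes and the place among the other subclones are described by counts and medians, with no test. Promoter letters were searched with Python 3.11.15.

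The members, the lists and the tests were chosen with earlier results of these data known. Genes are named where they marked or chose the pair, were among the 15 largest differences per direction, the 5 largest per direction in a list, the members of runs of at least 3 neighbouring called genes, up to 6 called genes on a chromosome with a shifted median, or the 5 largest in a class of place among the subclones. Mmp1a and Kyat3 were named after their values were seen. The alternatives were other pseudocounts, a filter on low values, quantile normalization, the mean of all probe sets of a gene, the 6 arrays alone, a replicate block, leaving out each array, and, added after the data had been seen, centring on chromosome medians.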

Additional observations from a re-analysis of the deposited data

How the results depend on the processing

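The number of genes called depended on the pseudocount, which sets how far low intensities are compressed. It was 423 higher and 279 lower with log2(intensity + 1), and 120 higher and 103 lower with log2(intensity + 64), against 242 and 180 in the fit reported. Of the 242 higher genes, 241 were also called with the smaller pseudocount and all 120 of the larger one were among them. The counts were 185 and 146 with a filter on low values, 231 and 184 with quantile normalization, 166 and 135 with the mean of all probe sets of a gene, 242 and 179 from the 6 arrays alone and 172 and 172 with chromosome medians removed, which was chosen after the data had been seen. Leaving out 1 array at a time gave 222 to 251 higher and 176 to 186 lower genes. With the replicate number as a block, 242 and 180 genes were called. The deviations of same-numbered arrays of the 2 lines correlated at 0.0703, 0.0303 and 0.111 for numbers 1, 2 and 3, so the numbers were not taken to pair the arrays.

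Of 2301 combinations of a gene in the text with an alternative, 2281 kept the direction and the side of the threshold. With chromosome medians removed, Cenpf turned to -0.1109 and Vim to 0.0643, and neither passed. That centring also turned the list medians of imprinted genes (to 0.13), sterol and fatty acid synthesis (-0.02), endothelial, fibroblast and adipocyte markers (-0.05), Wnt, Notch and Hedgehog genes (-0.0034) and Hox genes (-0.06), and the median of all genes (-0.0059). Hox and retinoid genes had medians within 0.01 of 0, and their signs changed under several alternatives, that centring included. Several alternatives other than the centring also turned the medians of epithelial genes (0.0171 in the fit reported), secreted factors (0.0159) and Wnt, Notch and Hedgehog genes (0.0182). The same held for lung epithelial markers (-0.0169) and endothelial, fibroblast and adipocyte markers (0.0209). For values near or under the pseudocount of 16, the intensity over background limits the size of a difference.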
